A study of Mus musculus with 6 samples.

Results

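The genes examined encode chromatin remodellers, 47 in all, taken by symbol: 28 SWI/SNF subunits and associated factors and 19 genes of the ISWI, CHD and INO80 families and other SNF2 ATPases. Of these, 46 were found among the 23361 symbols of the expression table. Srcap, the ATPase of the SRCAP complex, was not analysed here. A gene was tested when at least 3 of the 6 libraries reached 1 FPKM (sequenced fragments divided by transcript length and library size), which held for 45 of the set and for 12141 genes in all. The remaining member, Dpf3, stayed below that level in every library.

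Chromatin remodellers are ATP-driven machines that slide, evict or exchange nucleosomes. The SWI/SNF family comprises BAF, PBAF and non-canonical BAF (ncBAF), which share a core and an ATPase and differ in their defining subunits. Several positions of the complex are filled by either of a few paralogues, and in the developing nervous system some of these paralogues are exchanged when progenitors become neurons. The ISWI, CHD and INO80 families use related ATPases with other partners. SWI/SNF is of interest in small cell lung cancer (SCLC), a neuroendocrine tumour, because the study placed this complex, through its ATPase Brg1 (Smarca4) and its subunits Arid1a and Arid2, upstream of the transcriptional co-activator TAZ. Here the opposite question was examined: how the genes of the remodellers themselves were expressed in SCLC cells with and without active TAZ.

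SMC, the SCLC metastasizing cells, were NCAM-high and CD44-low or CD44-negative cells sorted from lung tumours of Rb1L/L, Trp53L/L mice on a mixed background of C57Bl/6, Balb-c and S129, in which both genes were deleted after intratracheal adenovirus with CMV-driven Cre. In culture, 3 libraries were made from cells given control virus (SMC-Ctrl) and 3 from cells given a puromycin-selectable vector for TAZ4SA, a TAZ mutant that is always active (SMC-TAZ4SA). Both groups therefore carried the Rb1 and Trp53 deletions, and the number of cell lines behind these libraries was not given. The replicates were not said to be separate cultures, and p-values therefore cover the spread between libraries only, which may be technical. The sample titles and the design text name these groups, whereas the study's data statement lists the series as SMC against non-SMC (NCAM-low, CD44-high cells); the titles were followed here, and each group name below means the libraries so titled.

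Wwtr1, the gene of TAZ, was at 0.162, 0.105 and 0.162 FPKM in SMC-Ctrl and at 31.7, 36.0 and 35.8 FPKM in SMC-TAZ4SA, in the direction of the titles, although the study describes TAZ as higher in non-SMC too. The 8 neuroendocrine markers examined, such as Chga and Syp, summed to 955 to 1049 FPKM in SMC-Ctrl and to 133 to 193 FPKM in SMC-TAZ4SA, and all 8 were lower by limma. Uchl1, at 130 to 190 FPKM, carried nearly all of the second range, and the other markers were at or below 1.27 FPKM there. Defining markers of leukocytes (Ptprc, Cd3e) stayed at or below 0.0395 FPKM in all libraries. The summed level of the 5 leukocyte markers was 0.947 to 1.20 FPKM in SMC-Ctrl and 0.715 to 1.13 FPKM in SMC-TAZ4SA, most of it Cd68. For the 5 fibroblast markers the sums were 0.501 to 0.633 and 2.10 to 3.08 FPKM, with Dcn and Lum at or below 0.179 FPKM throughout and Col6a3 carrying most of the second range. For the 4 endothelial markers they were 0.546 to 0.603 and 2.06 to 2.50 FPKM, mostly Kdr, with Pecam1 and Cdh5 at or below 0.123 FPKM. Pearson's r across tested genes was 0.990 to 0.997 within groups and 0.654 to 0.664 between them, across genes that are not independent replicates. Fewer cells with a transcript and less of it per cell cannot be told apart in such bulk RNA.

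Remodeller genes were more often lower than higher in SMC-TAZ4SA. Of the 45 tested members, 25 were lower, 8 were higher and 12 did not pass (limma on log2(FPKM + 1), adjusted p under 0.05). Among all tested genes 80.3% passed, 40.7% higher and 39.7% lower, so passing the test set no member apart. The members' shares were 73.3% passing, 17.8% higher and 55.6% lower. Their median log2 fold change was −0.26, beside 0.02 for all tested genes. The FPKM ranges of the groups did not overlap for 37 of the 45 members (82.2%), close to the 82.4% of all tested genes.

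Members that were below 1 FPKM in SMC-TAZ4SA could be tested only because SMC-Ctrl was higher, so they had to differ. These were Actl6b, Bcl11b, Chd5 and Smarca1. Among the 41 members at 1 FPKM or more in every library, 21 were lower (51.2%) and 8 were higher (19.5%). Of all genes meeting that condition, 36.8% were lower and 39.9% were higher. Under scaling of every library to 1 common total, 32 of 45 members were lower and 4 higher, against 48.4% and 32.8% of all genes. That scaling moved the median of all genes from 0.02 to −0.18 and the split of all calls from 4939 higher and 4815 lower to 3987 and 5875.

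**Figure D1:**
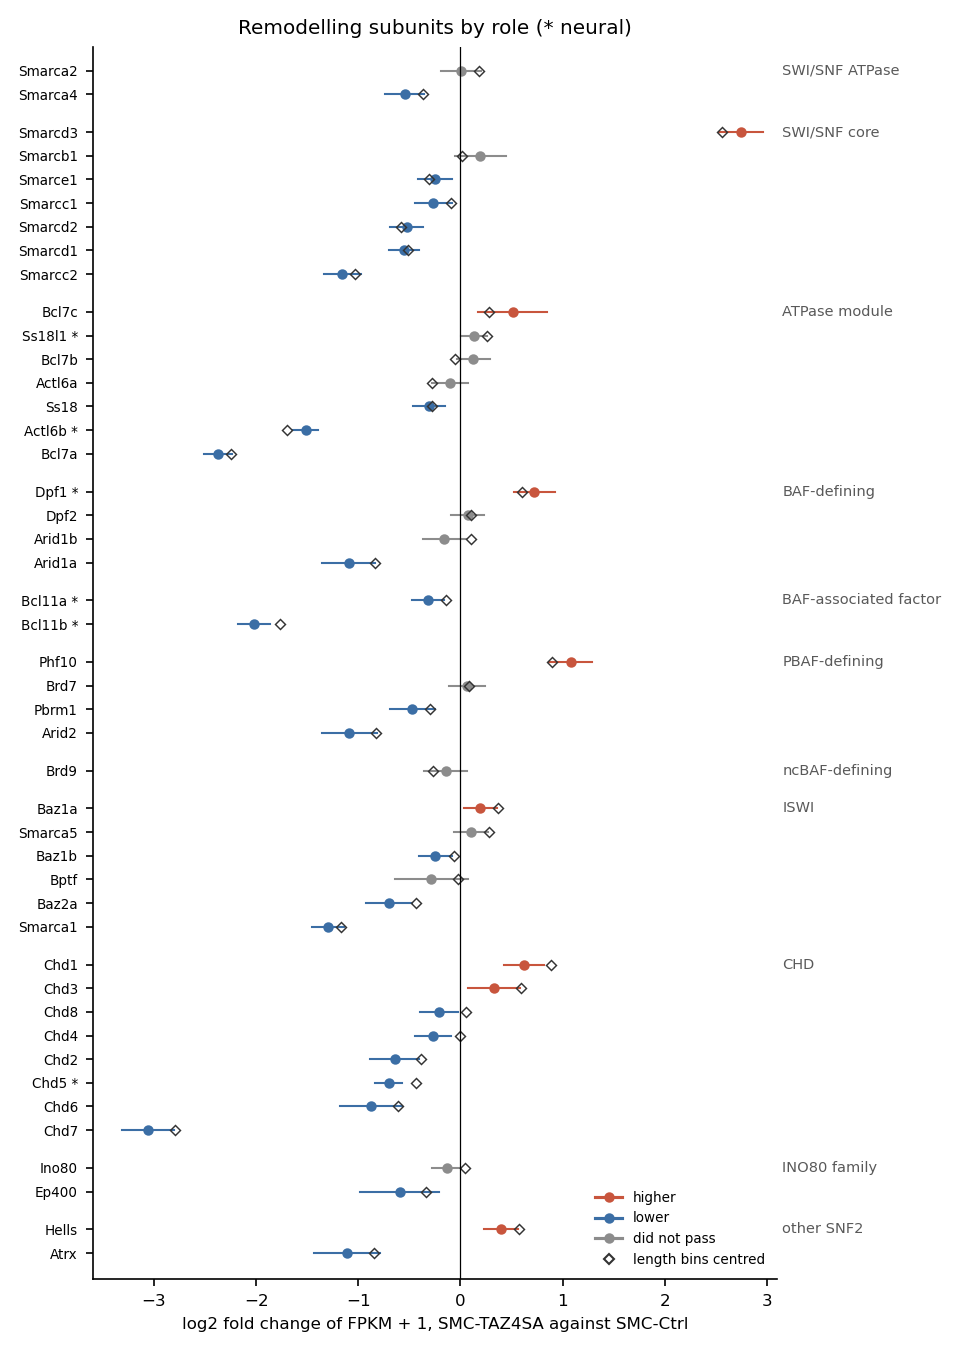
Log2 fold change of FPKM + 1 (SMC-TAZ4SA against SMC-Ctrl, horizontal axis) for the 45 tested members grouped by role, with lines for the 95% confidence interval of limma and open diamonds for the fold change after centring each library within bins of transcript length. Smarcd3 lies farthest to the right at 2.74 and Chd7 farthest to the left at −3.06, and 25 members are marked lower against 8 higher.

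Members of the set have long transcripts, and fold changes depended on transcript length. The median transcript of the tested members was 5921 bases, against 3067 bases for the 11460 tested genes with an annotated length, and 16 members fell into the longest of 10 equal bins of genes by transcript length. Across all genes the median log2 fold change ran from 0.22 in the shortest bin to −0.26 in the longest. SMC-TAZ4SA replicate 1 departed from replicates 2 and 3 in the same way, by 0.30 in the shortest bin and by −0.25 in the longest. Without that library the medians ran from 0.14 to −0.17, and 27 members were lower and 8 higher, where 42.0% of all tested genes were lower and 41.6% higher. Replicate 1 was the lowest of the SMC-TAZ4SA libraries for 16 of the 16 members in the longest bin, and for 10 of the other 29.

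Within the longest bin 12 of the 16 members were lower and 2 higher, where 51.1% of all genes in it were lower. Among the other 29 members 13 were lower and 6 higher, where 38.4% of all genes were lower. When each library was centred within these 10 bins, an alternative chosen after seeing the data, 22 members were lower and 9 higher, against 41.6% and 41.5% of all tested genes. The median of the members was then −0.14. Of the 27 SWI/SNF genes 14 were lower and 4 higher both before and after this centring, with medians of −0.25 and −0.26, but not all of them were the same genes: Smarcc1, Bcl11a and Bcl7c lost their calls, while Actl6a and Brd9 gained one as lower and Ss18l1 as higher. The other remodellers went from 11 lower and 4 higher of 18 to 8 lower and 5 higher, and their median from −0.28 to −0.05.

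**Figure D2:**
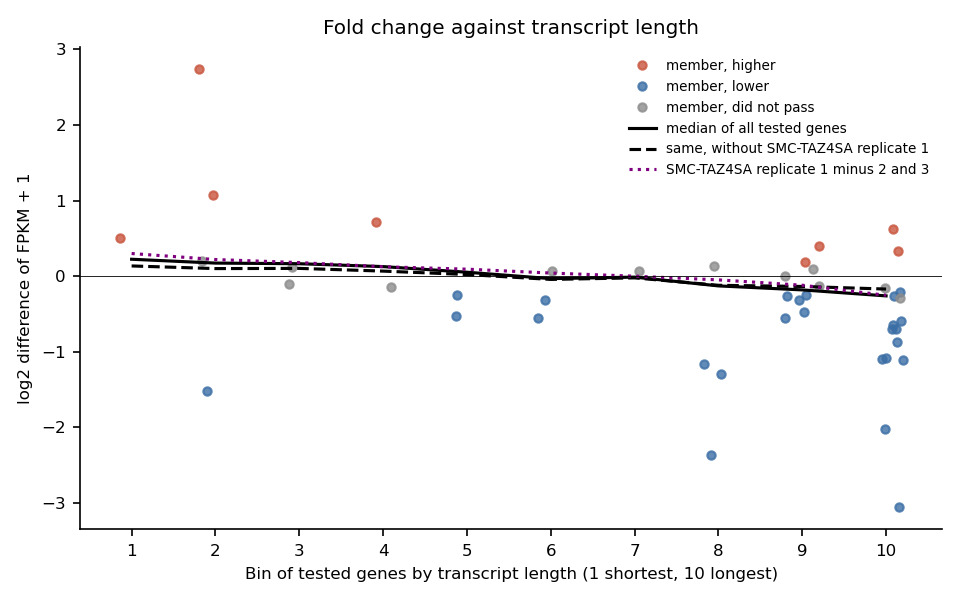
Log2 difference of FPKM + 1 (vertical axis) against the bin of transcript length (1 shortest, 10 longest) (horizontal axis), with members as points and the medians of all tested genes as lines. The solid line falls from 0.22 to −0.26, the dashed line without SMC-TAZ4SA replicate 1 from 0.14 to −0.17, and the 16 members of the longest bin lie between −3.06 and 0.62.

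The ATPase that the study knocked down in SMC and knocked out in mice was lower. By real-time PCR the study reported Brg1 as higher in SMC than in non-SMC, which is another comparison if the titles hold. Smarca4 (chromosome 9, 21616169 to 21704230, GRCm38), which encodes BRG1, was at 83.3, 85.5 and 74.5 FPKM in SMC-Ctrl and at 50.5, 57.7 and 57.4 FPKM in SMC-TAZ4SA. The groups did not overlap, and its log2 fold change was −0.55, with a standard error of 0.0825 and a limma adjusted p = 3.74e-04, or −0.37 with length bins centred. Its alternative Smarca2, which encodes BRM, had 4.06 ± 0.234 and 4.09 ± 0.518 FPKM (SD, n = 3), a log2 difference of 0.01 with a 95% interval of −0.19 to 0.20. Smarca4 thus held 95.2% of the summed FPKM of this pair in SMC-Ctrl and 93.1% in SMC-TAZ4SA.

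In the core of SWI/SNF 5 of 7 genes were lower and 1 was higher, beside 39.7% and 40.7% of all tested genes. With length bins centred 4 were lower and 1 higher, beside 41.6% and 41.5%. Smarcc2 (BAF170, a scaffold subunit; chromosome 10, 128459248 to 128490482) was at 89.5, 95.2 and 86.8 FPKM in SMC-Ctrl and at 36.3, 42.2 and 41.7 FPKM in SMC-TAZ4SA. Every SMC-TAZ4SA library was below every SMC-Ctrl library, with a log2 fold change of −1.16 (standard error 0.0778, adjusted p = 2.35e-06 by limma). Its partner in the scaffold, Smarcc1 (BAF155), went from 86.6 ± 4.54 to 72.0 ± 5.12 FPKM (SD, n = 3) and was lower by 0.26 on the log2 scale, a call lost with length bins centred (−0.09, adjusted p = 0.112 by limma) and without SMC-Ctrl replicate 1 (−0.24, adjusted p = 0.0523). An antisense neighbour, Dhx30, shares 123 exon bases with Smarcc1. Smarce1 (BAF57) was lower by 0.25, and Smarcb1 (BAF47) did not pass at 0.19.

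Smarcd3 showed the opposite course to its paralogues. This gene encodes BAF60C, the alternative BAF60 subunit best known from heart and skeletal muscle, and lies on chromosome 5 from 24590818 to 24624411. Its levels were 1.74, 1.90 and 2.10 FPKM in SMC-Ctrl and 21.0, 17.0 and 17.7 FPKM in SMC-TAZ4SA. The ratio of means was 9.70, and the log2 fold change was 2.74, with a standard error of 0.0925 and a limma adjusted p = 3.04e-08. Smarcd1 (BAF60A) and Smarcd2 (BAF60B) were lower by 0.55 and 0.53 on the log2 scale. Together the 3 paralogues summed to 77.1 ± 2.83 and 69.9 ± 4.67 FPKM (SD, n = 3). Chpf2, on the opposite strand, shares 183 exon bases with Smarcd3 and was itself higher by 0.62, from 4.89 ± 0.225 to 8.07 ± 0.388 FPKM. Strand use in the counting was not given, and its part in the values was not tested.

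The promoter of Smarcd3 is shown because this gene rose the most in the set, and that of Actl6b because this gene fell to a listed 0. The windows run from 250 bases before to 50 after a start site of NCBI RefSeq on GRCm38.p6, 5′ to 3′ on the gene's strand, and the start site of Smarcd3 lies inside its longer gene model. Capitals mark GGAATG, the core of the sequence bound by TEAD factors, the DNA-binding partners of TAZ, or its reverse complement CATTCC.
Smarcd3, chr5:24601953-24602252, minus strand: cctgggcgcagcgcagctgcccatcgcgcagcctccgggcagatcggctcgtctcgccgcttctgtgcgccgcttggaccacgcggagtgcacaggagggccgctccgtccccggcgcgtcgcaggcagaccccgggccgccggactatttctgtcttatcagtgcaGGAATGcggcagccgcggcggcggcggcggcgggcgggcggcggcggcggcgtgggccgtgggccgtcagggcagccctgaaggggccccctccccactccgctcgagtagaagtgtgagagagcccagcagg
Actl6b, chr5:137553296-137553595, plus strand: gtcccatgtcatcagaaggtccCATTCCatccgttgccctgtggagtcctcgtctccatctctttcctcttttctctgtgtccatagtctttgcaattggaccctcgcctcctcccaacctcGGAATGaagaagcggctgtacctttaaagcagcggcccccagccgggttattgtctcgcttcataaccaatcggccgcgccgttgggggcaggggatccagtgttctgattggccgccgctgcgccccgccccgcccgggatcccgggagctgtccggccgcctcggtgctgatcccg
Brd9, chr13:73937592-73937621, plus strand: ccgggagccgagGGAATGccgccggagtga
Chd6, chr2:161109319-161109336, minus strand: CATTCCgggggggcgggc
The Smarcd3 match began 83 bases before the start site, and the 2 matches of Actl6b began 228 and 128 bases before it. Of the 47 members, 38 had such a window (42 windows in all), and the letters occurred on either strand in 4 of them: Smarcd3, Actl6b, Brd9 and Chd6. They occur in 14.7% of all 32851 windows. Genes with a match thus included 1 that was higher, 2 that were lower and 1 (Brd9) that did not pass. The AP-1 letters TGANTCA, which overlapped none of these matches, occurred for Smarcb1 and Smarca2, neither of which passed, and in 7.81% of all windows.

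In the ATPase module, whose members bind the ATPase or its actin-like partners, 3 of 7 genes were lower, 1 was higher and 3 did not pass. Of all tested genes 39.7% were lower and 40.7% higher, so the lower share was near that of all genes. The lower ones included Actl6b, which the filter bound to be lower. Bcl7a (chromosome 5, 123343834 to 123374992), a BCL7 subunit of BAF, was at 54.5, 55.3 and 51.0 FPKM in SMC-Ctrl and at 9.27, 9.87 and 9.54 FPKM in SMC-TAZ4SA. Its groups were far apart, with a log2 fold change of −2.37 (standard error 0.0594, adjusted p = 5.27e-09 by limma). Bcl7c was higher by 0.51, from 12.9 ± 2.86 to 18.6 ± 1.99 FPKM (SD, n = 3), a call lost with length bins centred (0.28, adjusted p = 0.138 by limma) and with the same total (0.30, adjusted p = 0.0841). Bcl7b did not pass, at 19.2 ± 1.40 and 21.0 ± 0.650 FPKM (SD, n = 3). The summed FPKM of the 3 genes went from 85.7 ± 5.66 to 49.1 ± 2.04 (SD, n = 3).

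Actl6b (chromosome 5, 137553517 to 137569582), which encodes the neuronal actin-like subunit BAF53B, was at 1.69, 1.94 and 1.94 FPKM in SMC-Ctrl and was listed at 0 in the 3 SMC-TAZ4SA libraries. It was lower by limma (adjusted p = 3.89e-08), but the fitted fold change depends on the pseudocount and is not given as a size. Only SMC-Ctrl brought Actl6b past the filter, so a lower call was fixed in advance. Its general counterpart Actl6a (BAF53A) was at 60.6 ± 2.81 and 56.4 ± 4.57 FPKM (SD, n = 3), with a log2 difference of −0.10 and a 95% interval of −0.28 to 0.07. It passed as lower with length bins centred (−0.28, adjusted p = 3.15e-04 by limma), with the same total (−0.32), with the upper quartile (−0.25) and without SMC-TAZ4SA replicate 1 (−0.17). Mrpl47, antisense to it, shares 452 exon bases and was higher by 0.64. In SMC-Ctrl Actl6b contributed 2.97% of the ACTL6 sum, so the neural paralogue was the minor form there.

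Ss18, the SS18 subunit that dominates in most tissues, was lower by 0.31 on the log2 scale. Ss18l1 (CREST, the neuronal form; chromosome 2, 180042509 to 180070201) was at 2.20, 2.22 and 2.03 FPKM in SMC-Ctrl and at 2.45, 2.47 and 2.42 FPKM in SMC-TAZ4SA. Those ranges did not overlap, but the difference of 0.13 (SE 0.0536) missed the threshold (adjusted p = 0.0519 by limma). It passed as higher with length bins centred, at 0.26 (adjusted p = 0.00218).

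Among the subunits that define BAF, the DNA-binding subunit Arid1a was lower and its paralogue Arid1b did not pass. Arid1a (BAF250A; chromosome 4, 133679008 to 133756769) was at 63.4, 62.2 and 54.8 FPKM in SMC-Ctrl and at 23.2, 29.3 and 30.7 FPKM in SMC-TAZ4SA. No library of the second group reached the first, with a log2 fold change of −1.10, with a standard error of 0.112 and a limma adjusted p = 3.38e-05. Without SMC-TAZ4SA replicate 1, its lowest library, the value was −0.98, and with length bins centred −0.83. Arid1b was at 8.66 ± 0.340 and 7.70 ± 0.942 FPKM (SD, n = 3), and its share of the ARID1 sum went from 12.6% to 21.8%. It passed as lower with the same total (−0.35) and the upper quartile (−0.29).

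PBAF-defining genes moved in both directions. Arid2 (BAF200; chromosome 15, 96287518 to 96404992) was at 32.7, 30.4 and 30.5 FPKM in SMC-Ctrl and at 11.5, 15.5 and 15.8 FPKM in SMC-TAZ4SA. Its log2 fold change was −1.09 (standard error 0.116, adjusted p = 4.45e-05 by limma), or −0.83 with length bins centred. Pbrm1 (BAF180, which carries bromodomains) was lower by 0.47, or by 0.29 with length bins centred. Phf10 (BAF45A, the PHD-finger subunit of PBAF; chromosome 17, 14945009 to 14961273) was higher, at 33.8, 35.9 and 31.8 FPKM in SMC-Ctrl and 81.6, 70.7 and 66.1 FPKM in SMC-TAZ4SA. Its log2 fold change was 1.08, with a standard error of 0.0901 and a limma adjusted p = 9.53e-06. An overlapping antisense gene, 1600012H06Rik, shares 176 exon bases with Phf10 and went from 10.0 ± 0.519 to 15.2 ± 1.07 FPKM. Brd7 of PBAF did not pass, and nor did Brd9 of ncBAF (−0.15), which passed as lower with length bins centred (−0.26, adjusted p = 0.0025 by limma). Brd9 also passed as lower with the same total (−0.35), with the upper quartile (−0.29) and without SMC-TAZ4SA replicate 1 (−0.23).

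Phf10 shares its position with the DPF subunits of BAF, of which Dpf1 and Dpf3 are neural forms. Dpf1 (BAF45B; chromosome 7, 29303951 to 29318243) was at 2.41, 2.88 and 3.01 FPKM in SMC-Ctrl and at 5.13, 4.77 and 5.70 FPKM in SMC-TAZ4SA. All libraries of the second group were above the first, with a log2 fold change of 0.72 (standard error 0.0866, adjusted p = 9.29e-05 by limma). Dpf3 (BAF45C; chromosome 12, 83213745 to 83487716) was at 0.316, 0.472 and 0.376 FPKM in SMC-Ctrl and at 0, 0.0465 and 0.0274 FPKM in SMC-TAZ4SA, too low for the test. The general form Dpf2 (BAF45D) did not pass, at 45.1 ± 1.78 and 47.5 ± 3.19 FPKM (SD, n = 3). Phf10 and Dpf2 together made up over 95% of this position's FPKM in each group, with Phf10 going from 41.2% to 57.9% and Dpf2 from 55.0% to 37.9%.

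The zinc-finger factors Bcl11a and Bcl11b associate with BAF and are transcription factors of the nervous system and of lymphocytes. Bcl11b (chromosome 12, 107910403 to 108003602) was at 4.36, 3.95 and 3.69 FPKM in SMC-Ctrl and at 0.196, 0.202 and 0.286 FPKM in SMC-TAZ4SA. Its SMC-TAZ4SA mean was 0.0570 of that in SMC-Ctrl. The log2 fold change, understated at such low values, was −2.02, with a standard error of 0.067 and a limma adjusted p = 2.71e-08. Bcl11b passed the filter only through SMC-Ctrl and so had to be lower, and its p-value is no evidence of that direction. Bcl11a (chromosome 11, 24078056 to 24174123) was at 9.01, 8.50 and 8.51 FPKM in SMC-Ctrl and at 7.25, 6.72 and 6.36 FPKM in SMC-TAZ4SA. Its smaller difference of −0.32 (adjusted p = 0.00243 by limma) did not pass with length bins centred (−0.14, adjusted p = 0.118).

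**Figure D3:**
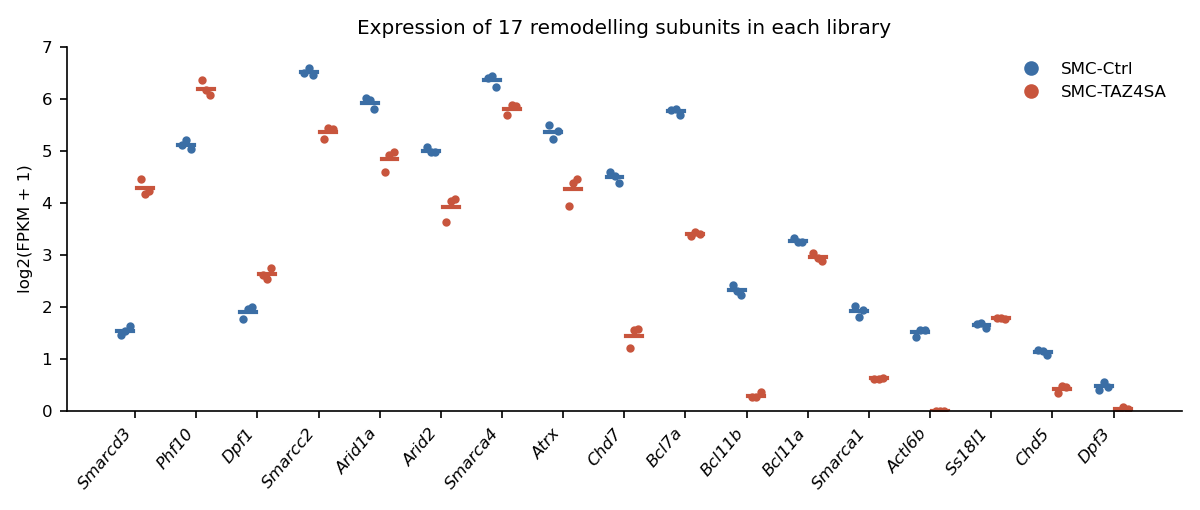
Expression as log2(FPKM + 1) (vertical axis) of 17 members in each of the 3 SMC-Ctrl and 3 SMC-TAZ4SA libraries, with points for libraries and short lines for group means. The groups are apart for all 17, most of which were chosen for a large change that passed. FPKM ranges did not overlap for 82.4% of all tested genes either. Smarcd3, Phf10, Dpf1 and Ss18l1 are the ones drawn higher in SMC-TAZ4SA.

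Among the ISWI genes 3 of 6 were lower and 1 was higher, where 39.7% of all tested genes were lower and 40.7% higher. With length bins centred 2 were lower and 2 higher, where 41.6% and 41.5% of all tested genes were. Smarca1 (SNF2L, the ISWI ATPase prominent in the nervous system; chromosome X, 47809368 to 47892974) was at 3.07, 2.50 and 2.81 FPKM in SMC-Ctrl and at 0.538, 0.536 and 0.549 FPKM in SMC-TAZ4SA. The log2 fold change was −1.30 (standard error 0.0655, adjusted p = 3.83e-07 by limma). Smarca1 was admitted by the filter only through SMC-Ctrl, which bound it to be lower. Smarca5 (SNF2H), the more general ISWI ATPase, did not pass, at 17.5 ± 1.07 and 18.9 ± 1.27 FPKM (SD, n = 3), although it passed as higher with length bins centred (0.28, adjusted p = 0.0142 by limma). Baz2a, the partner of SNF2H in a complex that silences ribosomal RNA genes, was lower by 0.70, or by 0.43 with length bins centred. The calls of Baz1b (lower by 0.25) and Baz1a (higher by 0.19) were small and fragile: Baz1b lost its call with length bins centred (−0.07) and without SMC-Ctrl replicate 1 (−0.22, adjusted p = 0.0534 by limma). Leaving out any library other than SMC-TAZ4SA replicate 1 ended the call of Baz1a, with values of 0.15 to 0.20, and the same total gave −0.02. Without SMC-TAZ4SA replicate 1 it was 0.25, and with length bins centred 0.37 (adjusted p = 6.70e-05 by limma). Bptf, the large subunit of NURF, did not pass at −0.28, with −0.09 without SMC-TAZ4SA replicate 1 and −0.02 with length bins centred, but it passed as lower with the same total (−0.49) and the upper quartile (−0.43).

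Chd7 had the lowest log2 fold change of the tested members with a pseudocount of 1, while with 0.1 Actl6b and Bcl11b were lower still. This gene (chromosome 4, 8690406 to 8867659), which encodes a remodeller required in neural crest and inner ear development, was at 23.2, 21.8 and 20.0 FPKM in SMC-Ctrl and at 1.31, 1.93 and 1.98 FPKM in SMC-TAZ4SA. The groups were far apart, and the log2 fold change was −3.06, with a standard error of 0.110 and a limma adjusted p = 4.52e-08, −2.94 without SMC-TAZ4SA replicate 1 and −2.79 with length bins centred. Of the 8 CHD genes 6 were lower and 2 higher, where 39.7% and 40.7% of all tested genes were. All 8 lay in the longest bin of transcript length, in which 51.1% of all genes were lower. With length bins centred 4 were lower and 2 higher, and the median of the CHD genes went from −0.46 to −0.19. Chd6 was lower by 0.87 and Chd2 by 0.64 (by 0.61 and 0.38 with length bins centred), while Chd1, the relative of Chd2 that binds trimethylated lysine on histone H3, was higher by 0.62 (standard error 0.0834, adjusted p = 1.82e-04 by limma). Chd8 was lower by only 0.21, a call lost without SMC-Ctrl replicate 1, 2 or 3 or SMC-TAZ4SA replicate 2 (−0.24 to −0.19), and its value was −0.12 without SMC-TAZ4SA replicate 1 and 0.06 with length bins centred.

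Chd3, Chd4 and Chd5 supply the ATPase of NuRD, a complex that also carries histone deacetylases. Chd5, the neural form (chromosome 4, 152338651 to 152390194), was at 1.24, 1.22 and 1.10 FPKM in SMC-Ctrl and at 0.268, 0.397 and 0.372 FPKM in SMC-TAZ4SA. It was lower in every SMC-TAZ4SA library, by 0.70 on the log2 scale (SE 0.0569, adjusted p = 7.97e-06 by limma), or by 0.44 with length bins centred. That direction was set by the filter, which Chd5 passed only through SMC-Ctrl. Chd5 made up 0.868% of the CHD3 to CHD5 sum in SMC-Ctrl. Chd4, with 95.6 ± 4.89 FPKM (SD, n = 3) the highest mean of the 46 listed members in SMC-Ctrl, was lower by 0.27, but had −0.01 with length bins centred (adjusted p = 0.925 by limma). Chd3 was higher by 0.33, a call lost with the same total (0.11, adjusted p = 0.463 by limma) and when any library other than SMC-TAZ4SA replicate 1 was left out (0.25 to 0.34). It was 0.46 without that library and 0.59 with length bins centred (adjusted p = 4.51e-06 by limma).

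Of the remaining ATPases, Atrx (chromosome X, 105797615 to 105929403), which places histone H3.3 at heterochromatin, was at 44.0, 36.8 and 40.9 FPKM in SMC-Ctrl and at 14.3, 20.0 and 21.1 FPKM in SMC-TAZ4SA. Its log2 fold change was −1.11, with a standard error of 0.139 and a limma adjusted p = 1.22e-04, or −0.85 with length bins centred. Ep400, the ATPase of the TIP60 assembly, was lower by 0.60, by 0.33 with length bins centred and by 0.39 without SMC-TAZ4SA replicate 1, where it was lowest at 11.3 FPKM against 18.0 and 18.0 FPKM. Ino80 did not pass at −0.13, but it passed as lower with the same total (−0.33) and the upper quartile (−0.27). Exon overlaps were also annotated for Smarcd1 with Gm17349 (287 bases), Baz1a with Gm20403 (346 bases) and Pbrm1 with Gnl3 (15 bases), and their part in the values was not tested. Hells (LSH), which is needed for DNA methylation of repeats, was higher by 0.40 on the log2 scale (adjusted p = 0.00105 by limma), though only by 0.18 with the same total, where it did not pass.

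Changes of at least 2-fold on the log2(FPKM + 1) scale that also passed were found for 11 of 45 members (24.4%), 2 higher and 9 lower, against 32.2% of all tested genes. That background was not split by direction. Actl6b, Bcl11b and Smarca1, among the 9 lower ones, were admitted by the filter only through SMC-Ctrl and so had to differ. Neural members moved in both directions. Of the 7 neural forms, Actl6b, Bcl11a, Bcl11b and Chd5 were lower, Dpf1 was higher, Ss18l1 did not pass and Dpf3 was not tested. Smarca1, though described above as prominent in the nervous system, was counted as general. For 3 of the 4 that were lower the filter admitted the gene only through SMC-Ctrl. The median log2 fold change was −0.51 over the 6 tested neural members and −0.25 over the 39 tested general ones, of which 21 were lower, 7 higher and 11 did not pass. Among all tested genes 39.7% were lower and 40.7% higher. With length bins centred the medians of neural and general members were −0.29 and −0.09. The filter bound Actl6b, Bcl11b and Chd5 to be lower, so the medians of neural and general members cannot be set against each other. The tested neural members at 1 FPKM or more in every library were Bcl11a (−0.32), Ss18l1 (0.13) and Dpf1 (0.72).

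To compare the make-up of each position independently of the scaling between libraries, each gene's share of the summed FPKM of its paralogues was computed. FPKM is per transcript length, but group differences in FPKM still varied with length, so each share was also recomputed with length bins centred, an alternative added after seeing the data. There were 15 sets and 36 shares, and the shares of a pair mirror each other. With 3 libraries against 3 the exact 2-sided permutation test cannot go below p = 0.10, and 35 of the 36 shares reached that value (adjusted p = 0.103), which is to say that their ranges did not overlap, as for 82.4% of all tested genes by FPKM. With length bins centred all 36 shares kept their direction and 34 did not overlap, the exceptions being Chd6 and Dpf1, and no difference between groups moved by more than 4.75 percentage points. No share could pass 0.05 in this design.

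Bcl7a made up 62.7% ± 2.17 of the BCL7 sum in SMC-Ctrl and 19.5% ± 0.715 in SMC-TAZ4SA (SD, n = 3), the largest shift of the 36, or 59.9% and 21.5% with length bins centred. Bcl11b went from 31.5% ± 1.21 to 3.28% ± 0.897 of the BCL11 sum, and Chd7 from 33.1% ± 0.953 to 5.07% ± 0.469 of the CHD6 to CHD8 sum (SD, n = 3). Smarcd3 went from 2.48% ± 0.242 to 26.5% ± 1.31 of its sum (SD, n = 3). Chd1 moved from 50.3% ± 1.40 to 72.1% ± 1.15 of the sum with Chd2, and Smarcc1 from 48.9% ± 0.903 to 64.3% ± 0.245 of the sum with Smarcc2 (SD, n = 3). Smarca1 fell from 13.7% ± 0.498 to 2.80% ± 0.194 of the ISWI ATPase sum. The exception was Chd6, with 24.9% ± 0.539 and 24.9% ± 1.94 of its sum (exact permutation p = 1, n = 3).

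**Figure D4:**
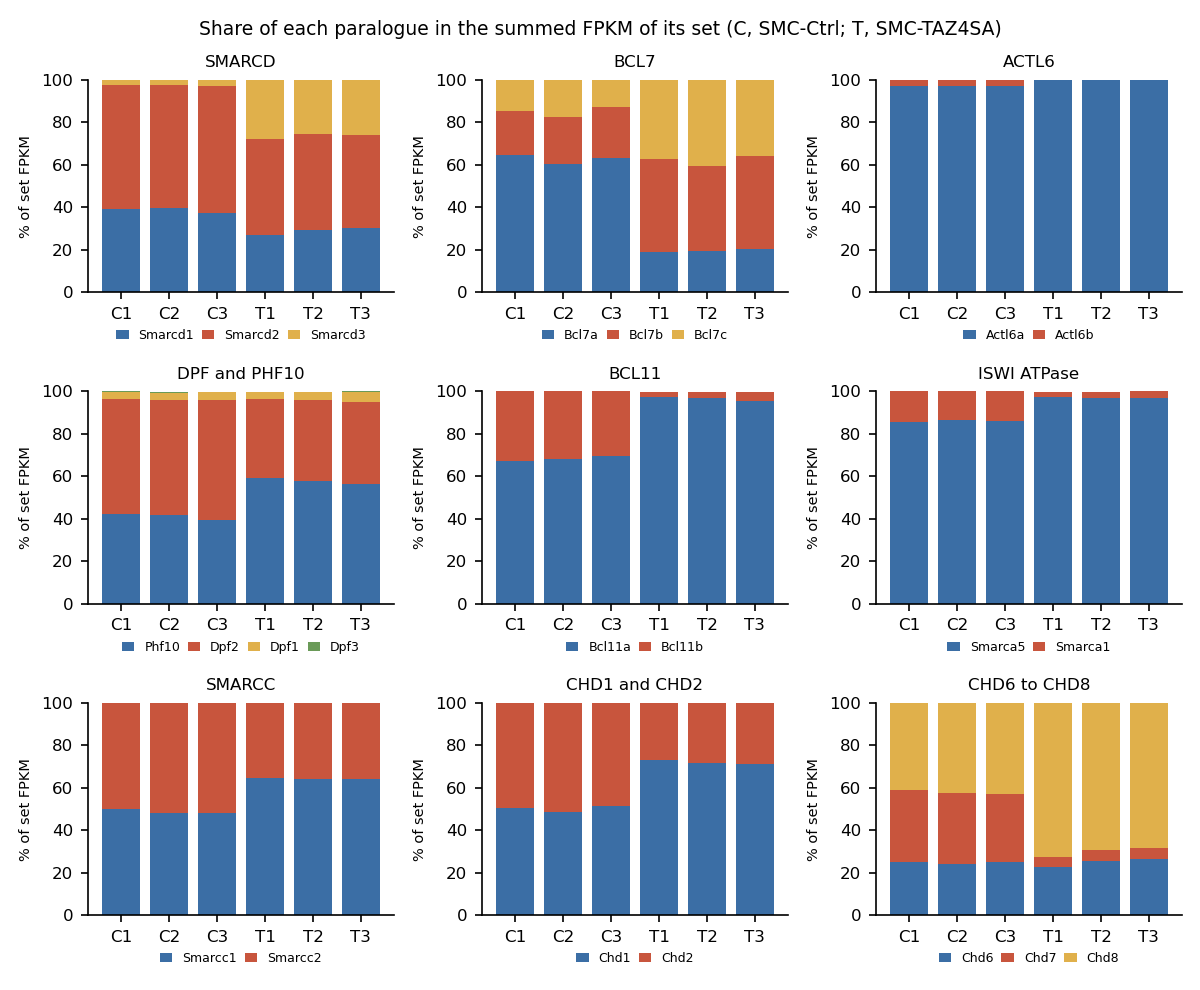
Share of each paralogue in the summed FPKM of its set (vertical axis, percent) in the 6 libraries (horizontal axis, C for SMC-Ctrl and T for SMC-TAZ4SA, replicates 1 to 3), for 9 of the 15 sets. Smarcd3 widens from 2.48% to 26.5% of its set, Bcl7a narrows from 62.7% to 19.5%, and the Actl6b band is present in the SMC-Ctrl libraries alone.

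Partner proteins of these remodellers, a list of 54 symbols of which 52 were in the table and 51 were tested, included 14 higher and 19 lower genes, while 18 missed the threshold and the median log2 fold change was −0.02. The lower partners were 37.3% of those tested and the higher ones 27.5%, beside 39.7% and 40.7% of all tested genes. With the same total 9 partners were higher and 30 lower (median −0.24), beside 32.8% and 48.4% of all tested genes (median −0.18). With length bins centred 14 partners were higher and 24 lower (median −0.18), beside 41.5% and 41.6% of all tested genes. The INO80 partners had 7 higher and 3 lower of 13, with Ruvbl1, an AAA+ ATPase shared with the SRCAP and TIP60 assemblies, higher by 0.88 and the deubiquitinase Uchl5 by 0.81. Nfrkb, another INO80 subunit, was lower by 0.96. The partners of SRCAP and EP400 had 7 lower and 1 higher of 13: Mbtd1 of TIP60 was lower by 1.11 and Morf4l1 higher by 0.82. The partners of NuRD had 4 higher and 2 lower of 12, with Gatad2a higher by 0.75 (adjusted p = 5.36e-06 by limma). The ISWI partners had 3 lower of 4 tested, and Baz2b fell by 1.37 on the log2 scale (adjusted p = 1.60e-06 by limma). Of 7 further SNF2 ATPases and partners, 3 were lower and 2 higher, and of the ncBAF partners Gltscr1l was lower, by 0.95.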

How the data were processed

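Total RNA was extracted with TRIzol, and paired-end libraries were sequenced on a NovaSeq instrument. The submitters' processing notes name mm10 and STAR 2.6. The authors deposited FPKM values, fragments scaled by transcript length and mapped fragments, in 1 column per library. For the tool and annotation behind them, and for strand use: not given in the sources used here. The count model of the authors' methods cannot be fitted to FPKM, so limma was used instead.

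The table held 23847 lines and 23361 symbols, and 254 symbols on several lines were left out. Genes at 1 FPKM or more in at least 3 of 6 libraries (12141) were tested on log2(FPKM + 1), which understates changes of low genes, with limma 3.58.1 in R 4.3.3 (group as the only term, mean-variance trend, 2-sided, Benjamini-Hochberg adjustment over all tested genes, threshold 0.05), after a check on simulated data. Paralogue shares were compared in Python 3.11.15 with exact permutation tests. Absolute depth is unknown. Steps of low values gave depths of 0.712 to 1.09 relative to SMC-Ctrl replicate 1, lowest in SMC-TAZ4SA replicate 3. Positions and lengths (APPRIS principal transcript) came from GENCODE M21 of GRCm38, the assembly of mm10, and promoters from NCBI RefSeq.

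Values in each library were given for members past the threshold with an absolute log2 fold change of at least 1, the neural members, Smarca4, Arid1a and Arid2, and Wwtr1 as the check of labels. Of the partners, at most 4 per direction with the largest change were named, and the other members were given by group. Members and lists were chosen with earlier results of these data known. The alternatives were a pseudocount of 0.1, no filter, a filter of 5 FPKM, the same total, the upper quartile, no trend, summed duplicates, a replicate block, each library left out, and length bins centred. A leukocyte marker of the list is not reported here.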

Additional observations from a re-analysis of the deposited data

How the results depend on the processing

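Each of the 45 tested members was refitted under 15 alternatives, and 618 of 668 fits kept the call. That count includes members that passed neither in the main fit nor in the alternative. Among the 41 members at 1 FPKM or more in every library, 20 (16 lower, 4 higher; 48.8%) kept threshold and direction in every alternative that tested them, beside 61.7% of all genes so expressed. They included Smarca4, Smarcc2, Smarcd3, Bcl7a, Arid1a, Arid2, Phf10, Chd7 and Atrx. With the same total only 4 members were higher in place of 8, since that scaling lowers SMC-TAZ4SA values. Of all tested genes 32.8% were then higher and 48.4% lower. The scaling also turned Dpf2 to −0.14, Brd7 to −0.15 and Baz1a to −0.02, of which the first 2 then passed as lower. It took Smarcc1, Smarce1, Ss18, Bcl11a, Chd4, Baz1b and Chd8 to between −0.53 and −0.42. Length bins centred turned Chd8 to 0.06. Leaving out single libraries gave 6 to 8 members higher and 22 to 27 lower, and moved the difference in the share of Chd6 between −0.717 and 1.13 percentage points around 0.0382. The cause was not tested.

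Same-numbered libraries correlated at −0.25, −0.06 and −0.31 in their deviations from the group means, and differently numbered ones at −0.30 to 0.39. Deviations within a group are tied to each other, so these values cannot decide whether replicate numbers pair the samples. With the replicate number as a block, 7 members were higher and 23 lower (39.0% and 38.0% of all tested genes), and Baz1a, Baz1b and Chd8 no longer passed. The filter left out Dpf3, which was below 1 FPKM throughout, and the values listed at 0 can be failed estimates. With no filter Dpf3 had a log2 fold change of −0.44 (adjusted p = 1.68e-04 by limma), at values near the floor.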
